A study of Mus musculus with 3 samples.

Results

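The genes described here are 29 that code for proteases, hydrolases, lipid-binding proteins and membrane proteins of the lysosome, with their secreted inhibitor cystatin C. They were taken by symbol from the 27998 genes of a single-cell RNA count matrix, each matched 1 row, and all 29 had UMIs (unique molecular identifiers, each standing for 1 captured transcript). The set was fixed by gene name and not by measured values. By role it holds 6 endopeptidases, 5 exopeptidases, 1 protease inhibitor, 5 glycosidases, 5 lipid enzymes and lipid-binding proteins, 6 membrane proteins and progranulin.

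The cells came from whole brain, cerebellum removed, of female C57BL6J mice aged 5 months, and were sorted by flow cytometry for Cd11b, a surface integrin subunit of myeloid and NK cells. PLX5622, given in food, inhibits Csf1r, the receptor kinase that microglia need to survive. The labels describe an untreated mouse (Ctrl, 1 animal), a pool of 2 mice fed PLX5622 at 1200 mg/kg for 14 days (D0), and 1 mouse returned to control diet for 2 days after 14 days of PLX5622 (D2). The protocol speaks of a single assay of more samples than these 3, and any other was not analysed here. The matrix pools 3 libraries told apart by a suffix on the cell barcode, and nothing in the sources used here ties a suffix to Ctrl, D0 or D2. The libraries are therefore called 1, 2 and 3, no value is assigned to a treatment, and with 1 library of each kind no test between conditions was possible. Intervals below are at 95% and cover counting error only.

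Lysosomes are acidic organelles in which proteins, sugars and lipids delivered by phagocytosis, endocytosis and autophagy are broken down. Most of their enzymes are made as inactive precursors, carry a mannose 6-phosphate tag and mature at low pH, and heavily glycosylated membrane proteins line the organelle. Microglia and other macrophages clear debris through lysosomes, and dendritic cells use the same proteases to trim antigens for presentation.

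Libraries 1, 2 and 3 held 1263, 599 and 287 barcodes with 6410990, 4022293 and 2831118 UMIs, shared no barcode, and had medians of 3662, 6188 and 8172 UMIs per cell. After filtering, 2137 cells fell into 15 clusters, of which 12 were named from marker lists and 3 stayed unnamed. The 29 genes and a wider list of 79 lysosomal genes were kept out of the genes used to cluster. The suffix "-like" marks these names as rebuilt ones. Library 1 was mostly microglia-like (1070 of 1261 cells used), library 2 held 65 microglia-like cells among 592, and library 3 held no such cell among 284. The microglia-like cells expressed all 12 microglia markers in both libraries, but the markers summed to 24758 CPM in library 1 and to 10203 CPM in library 2, where CPM is the UMIs of a gene out of every 1000000 UMIs of the class. The 101 border-associated-macrophage-like cells, a type that lives at the brain's surfaces and vessels, were all from library 1, carried all 9 of their markers at 3144 CPM, and also carried the 12 microglia markers at 14507 CPM. A cell type that is missing, or present with fewer than 10 cells, from a library has no value there.

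The promoters of many lysosomal genes carry an E-box that the transcription factor TFEB and its relatives bind. Its core, CACGTG, which reads the same on both strands, was searched in RefSeq windows (GRCm38.p6) from 250 bases before to 50 bases after each annotated start. The table held 29 windows for 26 of the 29 genes; Ctsb, Ctsh and Npc1 were not matched. The core occurred in 7 windows, 1 for each of Ctsa, Ctsd, Ctsf, Ctsl, Gaa, Lamp1 and Lgmn (24.1%), against 7.15% of all 32851 windows of that length and 10.4% of the 9592 windows of genes with at least 50 UMIs. The longer TCACGTGA, which contains the core, occurred in 2 windows (6.9%), those of Ctsa and Ctsd, against 0.974% of all windows and 2% of those of genes with at least 50 UMIs. Lamp1 had 4 cores within the last 61 bases before its start, more than any other of the 29 genes. The 250 bases before the starts of Lamp1 (chr8:13158911-13159160, plus strand) and of Ctss (chr3:95526536-95526785, plus strand), an abundant member with no core, are shown for contrast, with each core in capitals.
Lamp1: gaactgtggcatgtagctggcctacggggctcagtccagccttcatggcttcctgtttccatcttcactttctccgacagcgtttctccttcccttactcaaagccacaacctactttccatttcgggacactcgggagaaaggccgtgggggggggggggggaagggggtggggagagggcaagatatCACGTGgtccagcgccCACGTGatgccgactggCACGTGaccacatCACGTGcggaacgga
Ctss: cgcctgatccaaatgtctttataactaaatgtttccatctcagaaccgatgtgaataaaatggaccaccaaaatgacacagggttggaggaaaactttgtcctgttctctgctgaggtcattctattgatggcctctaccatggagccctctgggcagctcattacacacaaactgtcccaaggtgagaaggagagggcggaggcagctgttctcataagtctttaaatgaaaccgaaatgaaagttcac
The other members with the core are shown by the site and up to 10 bases on either side. They include Ctsd, Ctsl and Lgmn, whose levels are described below.
Ctsa, 12 bases before the start, chr2:164833751-164833776, plus strand: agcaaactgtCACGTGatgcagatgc
Ctsa, 6 bases after the start, chr2:164833768-164833793, plus strand: tgcagatgctCACGTGaccagagcta
Ctsd, 98 bases before the start, chr7:142387910-142387935, minus strand: gcccgcgtctCACGTGacccgttgag
Ctsd, 245 bases before the start, chr7:142388057-142388077, minus strand: tccccCACGTGacctgtatcc
Ctsl, 236 bases before the start, chr13:64370741-64370766, minus strand: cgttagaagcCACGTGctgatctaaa
Lgmn, 49 bases before the start, chr12:102439126-102439151, minus strand: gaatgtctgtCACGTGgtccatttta
Gaa, 140 bases before the start, chr11:119267813-119267838, plus strand: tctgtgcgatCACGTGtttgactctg
Ctsf, 79 bases before the start, chr19:4855076-4855101, plus strand: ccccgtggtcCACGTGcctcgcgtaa
A match of letters is a description of the window and not a bound site. Ctsa and Lgmn each had another window, from a start further upstream, without the core. For Lgmn, the bases after that other start were found in a GENCODE transcript, and those after the start used here were not. GENCODE places the start of each of these 6 genes further upstream than the RefSeq start used for the distance, so a site before the latter can lie within the gene.

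The 29 genes together made up 11.6% of all UMIs of microglia-like cells in library 1 (interval 11.5 to 11.6, 1070 cells) and 10.9% in library 2 (10.8 to 11.0, 65 cells). Border-associated-macrophage-like cells of library 1 came next with 7.58% (7.53 to 7.63). Dendritic-cell-like cells stood at 3.13%, 2.26% and 2.11% in libraries 1, 2 and 3, and migratory-dendritic-cell-like cells, which carry antigen toward lymph nodes, at 2.93% in library 2. Monocyte-like cells stood at 2.46% in library 2 and 2.23% in library 3, and non-classical-monocyte-like cells, the patrolling blood monocytes, at 2.96% and 2.54%. NK-like cells were lowest, with 2.23%, 0.489% and 0.434%, and neutrophil-like cells varied most, with 4.99%, 2.40% and 0.521%.

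The high values of neutrophil-like and NK-like cells in library 1, and of neutrophil-like cells in library 2, came with microglia markers. In library 1, 7 of 13 neutrophil-like cells and 2 of 13 NK-like cells had at least 0.3% of their UMIs from the 12 microglia markers, as did 10 of 52 neutrophil-like cells in library 2. Without those cells the 29 genes made up 0.685% and 0.721% of UMIs in neutrophil-like cells of libraries 1 and 2 and 0.585% in NK-like cells of library 1. The same step took dendritic-cell-like cells of library 1 from 3.13% to 2.49% (9 of 37 cells left out) and border-associated-macrophage-like cells from 7.58% to 3.70% (83 of 101 left out, which leaves 18 cells).

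**Figure D1:**
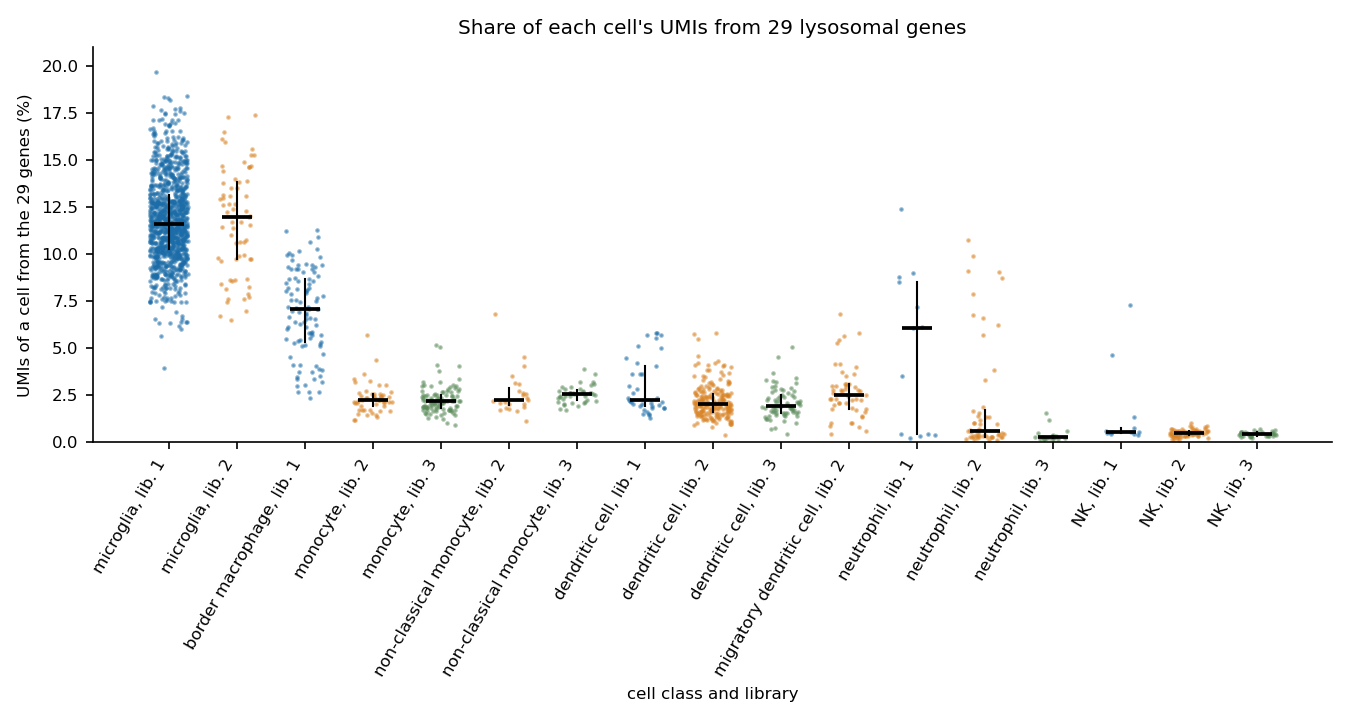
Percentage of each cell's UMIs that came from the 29 lysosomal genes (vertical axis), by cell class and library (horizontal axis); each point is 1 cell, coloured by library, the horizontal bar is the median and the vertical bar the interquartile range. Microglia-like cells had medians of 11.6% and 12.0%, and neutrophil-like cells of libraries 1 and 2 split into a low group and a high group, the latter with cells that carry microglia markers.

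Single cells separated in the same way. The median microglia-like cell gave 11.6% of its UMIs to the 29 genes in library 1 and 12.0% in library 2. The 5th percentile of library 1 microglia-like cells was 8.38%. At or above that level lay 55 of the 65 microglia-like cells of library 2, 31 of the 101 border-associated-macrophage-like cells, 4 of 13 neutrophil-like cells of library 1 and 5 of 52 of library 2. Of library 3, none of its 284 cells reached it, and in library 2 only 5 of 527 cells outside the microglia-like class did, all neutrophil-like.

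A few genes carried the sum over all cells pooled. Cst3 alone made up 54.7% of the UMIs of the 29 genes over all cells, Ctsd 8.49%, Ctss 8.30%, Lgmn 4.59% and Psap 3.69%, while Gaa, Npc1, Neu1, Scarb2 and Lipa each stayed at 0.151% or less. The part of Cst3 varied by class. It made up 1.96% of the UMIs of migratory-dendritic-cell-like cells of library 2, where the 29 genes made up 2.93%. In monocyte-like cells of library 3 these shares were 0.555% and 2.23%, and in NK-like cells of library 2 0.0573% and 0.489%. Since a 3′ library counts 1 tag per captured transcript, UMI counts do not grow with transcript length, though capture may differ between genes. Of the 29 genes, 23 had their highest level in microglia-like cells, 18 of them in library 2 and 5 (Cst3, Lgmn, Laptm5, Man2b1 and Ctsf) in library 1. The others peaked in border-associated-macrophage-like cells (Ctsc and Npc1), non-classical-monocyte-like cells of library 2 (Laptm4a, Lipa and Neu1) or migratory-dendritic-cell-like cells (Npc2). For Npc1 the top level was close to the next (70.6 against 68.9 CPM in library 1 microglia-like cells). For Neu1 (111 against 102 CPM in library 2 microglia-like cells) and Lipa (167 against 102 CPM in the same cells) the top level rests on few UMIs. The split of peaks between libraries 1 and 2 includes small differences. Grn had a log2 ratio of 0.11 and Man2b1 of -0.12 in microglia-like cells, library 2 over library 1. The classes of highest level were not counted over all genes, so the 23 is a description and not a result about the set.

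**Figure D2:**
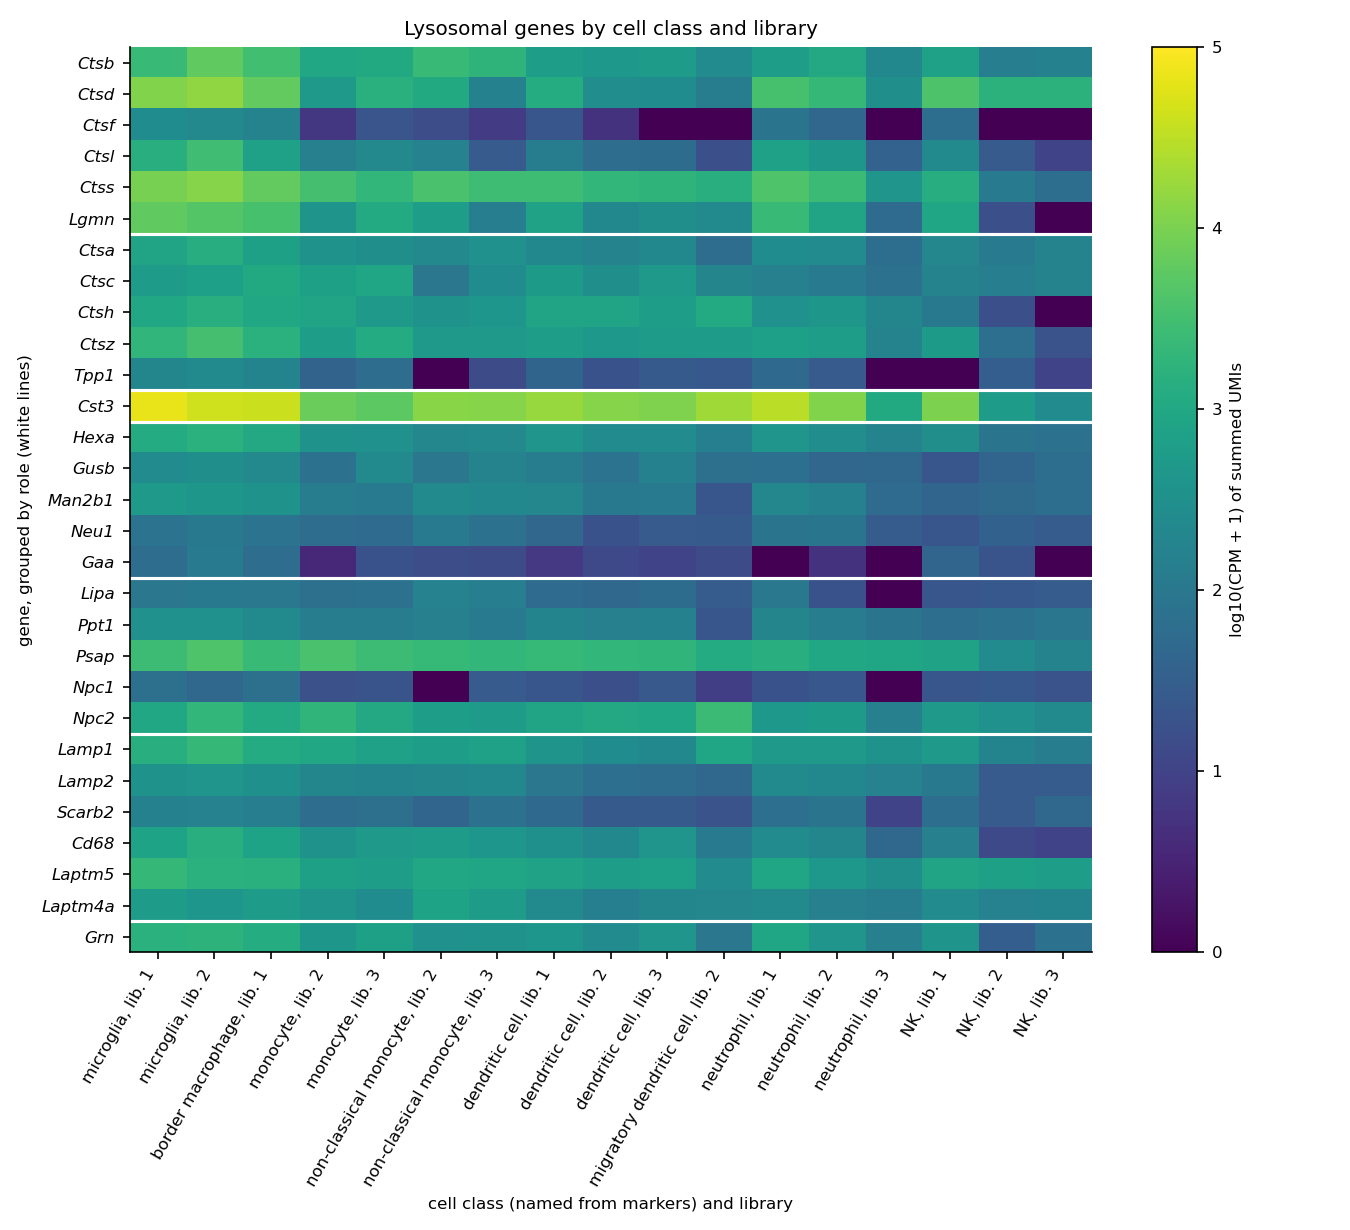
Level of each of the 29 genes as log10(CPM + 1) of summed UMIs (colour), with genes in rows grouped by role between white lines and cell classes by library in columns. Microglia-like columns are brightest for most genes, Cst3 is the brightest row, and in the NK-like columns of libraries 2 and 3 Ctsd is the brightest of the cathepsins.

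Among the endopeptidases, Ctsd codes for cathepsin D, the aspartic protease of the lysosome. Its level was 11109 CPM in library 1 and 14865 CPM in library 2 microglia-like cells, and 6174 CPM in border-associated-macrophage-like cells. It was 496 and 1496 CPM in monocyte-like cells of libraries 2 and 3, and 1230, 287 and 270 CPM in dendritic-cell-like cells of libraries 1, 2 and 3. NK-like cells of libraries 2 and 3 held 1602 and 1645 CPM, above every dendritic-cell-like value.

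Ctss, the cysteine protease cathepsin S that matures MHC class II molecules, stood at 9249 and 12360 CPM in microglia-like cells, 6208 CPM in border-associated-macrophage-like cells, 3425 and 2063 CPM in monocyte-like cells of libraries 2 and 3, and 2745, 2049 and 1793 CPM in dendritic-cell-like cells. NK-like cells held 107 and 63.3 CPM in libraries 2 and 3, the latter the lowest level of the gene. Those of library 1, 2 of which carried microglia markers, held 1301 CPM, above the 402 CPM of neutrophil-like cells of library 3.

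Lgmn, the asparaginyl endopeptidase legumain that activates other cathepsins, was high in microglia-like cells (6098 and 4525 CPM) and border-associated-macrophage-like cells (3582 CPM). Monocyte-like cells of libraries 2 and 3 held 378 and 1133 CPM. Among NK-like cells it had 4 UMIs in library 2 and 0 in library 3, where 3 UMIs would be 27.1 CPM.

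Ctsb codes for cathepsin B, a cysteine protease with both endopeptidase and carboxypeptidase activity. It stood at 2440 and 6142 CPM in microglia-like cells of libraries 1 and 2, and at 3025 CPM in border-associated-macrophage-like cells. Non-classical-monocyte-like cells of libraries 2 and 3 held 2485 and 1820 CPM, the first of these above the microglia-like level of library 1. Ctsl, the related cathepsin L, stood at 1403 and 2873 CPM in microglia-like cells, 714 CPM in border-associated-macrophage-like cells, and 148 and 220 CPM in monocyte-like cells of libraries 2 and 3. Ctsf, cathepsin F, reached 270 and 220 CPM in microglia-like cells and 171 CPM in border-associated-macrophage-like cells. It was at most 20.4 CPM in every monocyte-like and dendritic-cell-like class of the 3 libraries.

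The exopeptidases, which cleave from chain ends, varied in how far they lay below the microglial level in other classes. Ctsz, the carboxypeptidase cathepsin Z, went from 1996 and 3390 CPM in microglia-like cells to 1174 CPM in monocyte-like cells of library 3 and 465 CPM in dendritic-cell-like cells of library 2. Ctsh, an aminopeptidase, and Ctsc, a dipeptidyl peptidase that activates serine proteases of immune granules, lay close together in microglia-like and dendritic-cell-like cells of library 1. Ctsh had 938 CPM in the former and 820 CPM in the latter, and Ctsc 569 and 535 CPM. Ctsa, which protects other lysosomal enzymes, and Tpp1, a tripeptidyl peptidase, ranged from 61.1 to 1297 CPM and from 0 to 236 CPM over the classes and libraries shown.

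Cst3 codes for cystatin C, a secreted inhibitor of cysteine cathepsins that dendritic cells and microglia make in quantity. It stood at 67462 CPM in library 1 and 44149 CPM in library 2 microglia-like cells, and at 39960 CPM in border-associated-macrophage-like cells. Migratory-dendritic-cell-like cells held 19645 CPM, dendritic-cell-like cells 17270, 12394 and 10635 CPM in libraries 1 to 3, and monocyte-like cells 7177 and 5549 CPM in libraries 2 and 3. Without Cst3 the share of the other genes of the set in microglia-like cells was 4.83% in library 1 and 6.50% in library 2, the reverse of the order with Cst3 included. Without Ctsd and Ctss as well it was 2.79% and 3.78%.

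The balance of inhibitor to protease transcripts differed widely between classes. Cst3 UMIs per UMI of 7 cysteine cathepsins (Ctsb, Ctsc, Ctsf, Ctsh, Ctsl, Ctss and Ctsz) numbered 4.00 (interval 3.97 to 4.03) in microglia-like cells of library 1 and 1.63 (1.59 to 1.68) in library 2. Dendritic-cell-like cells stood at 3.16, 2.97 and 2.58 in libraries 1 to 3, and migratory-dendritic-cell-like cells were highest at 5.56 (5.25 to 5.89). Monocyte-like cells were near even, with 1.08 in library 2 and 0.930 in library 3. The ratio is of transcripts, and because capture may differ between genes only its differences between classes are read.

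**Figure D3:**
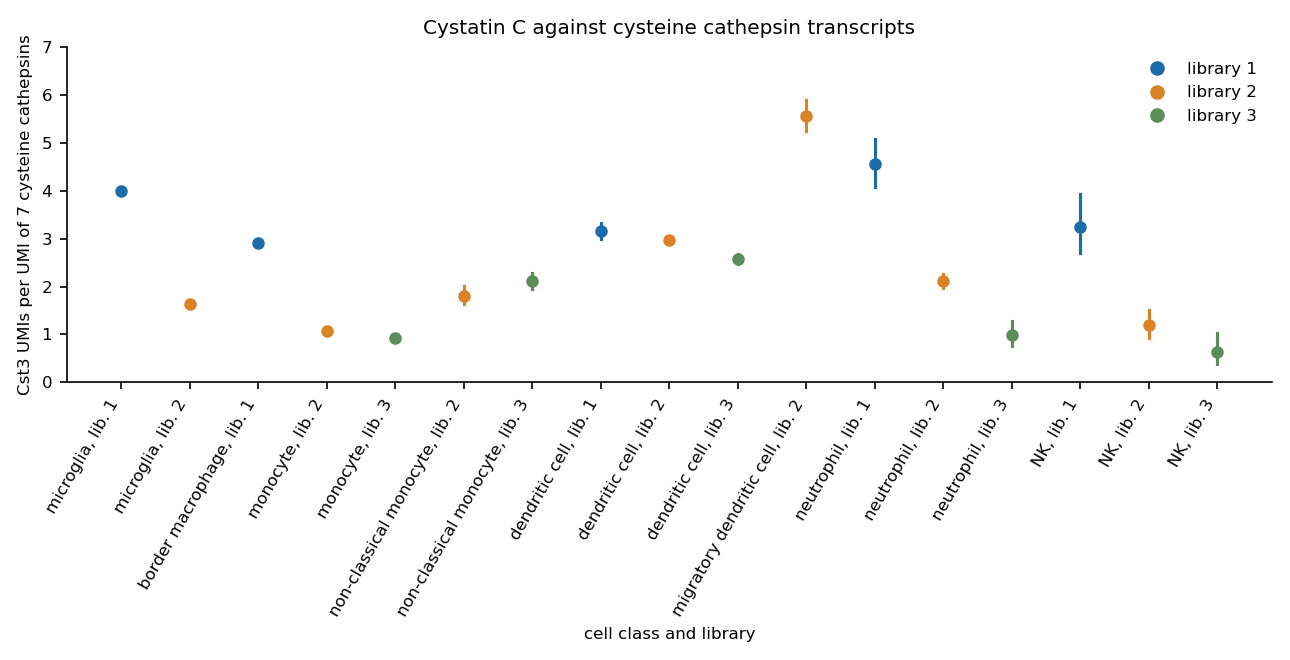
Cst3 UMIs per UMI of 7 cysteine cathepsins (vertical axis, from 0) by cell class and library (horizontal axis); points are ratios of summed UMIs and bars 95% counting intervals. Microglia-like cells stand at 4.00 in library 1 and 1.63 in library 2, and the neutrophil-like and NK-like values of library 1 include cells with microglia markers.

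The glycosidases were less abundant. Hexa, a hexosaminidase subunit whose loss causes Tay-Sachs disease, led them with 1198 and 1540 CPM in microglia-like cells. Man2b1 (alpha-mannosidase), Gusb (beta-glucuronidase), Neu1 (sialidase) and Gaa (acid alpha-glucosidase) ranged from 61.1 to 484 CPM in microglia-like cells. Gusb was nearly as high in monocyte-like cells of library 3 (240 CPM) as in microglia-like cells of library 1 (257 CPM).

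Of the lipid genes, Psap codes for prosaposin, the precursor of the activators that help enzymes reach sphingolipids. It stood at 2619 and 4231 CPM in microglia-like cells, 3644 and 2707 CPM in monocyte-like cells of libraries 2 and 3, and 2192, 2026 and 1849 CPM in dendritic-cell-like cells. Migratory-dendritic-cell-like cells held 1176 CPM and neutrophil-like cells of libraries 2 and 3 held 954 and 923 CPM. Npc2, a soluble carrier of cholesterol, stood at 1009 and 2083 CPM in microglia-like cells, 1906 and 1053 CPM in monocyte-like cells and 2510 CPM in migratory-dendritic-cell-like cells. Its membrane partner Npc1 had no more than 70.6 CPM anywhere. Lipa, the acid lipase of cholesteryl esters, and Ppt1, which removes palmitate from proteins, reached 102 and 342 CPM in microglia-like cells of library 2.

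Among the membrane proteins, Lamp1, a major glycoprotein of the lysosomal membrane, stood at 1345 and 2131 CPM in microglia-like cells, 986 and 730 CPM in monocyte-like cells, and 904 CPM in migratory-dendritic-cell-like cells. Laptm5, a transmembrane protein of blood cells, had the highest level of the 6 in NK-like cells (696 and 597 CPM in libraries 2 and 3), against 2163 and 1537 CPM in microglia-like cells. Cd68, a macrophage glycoprotein, went from 795 and 1355 CPM in microglia-like cells to 11.5 and 9.04 CPM in NK-like cells of libraries 2 and 3. Laptm4a peaked in non-classical-monocyte-like cells, with 778 and 557 CPM in libraries 2 and 3. Lamp2 and Scarb2, the receptor that carries glucocerebrosidase, stayed at or under 399 and 163 CPM. Grn, which codes for progranulin, a secreted protein processed in lysosomes, had 1593 and 1719 CPM in microglia-like cells and 1250 CPM in border-associated-macrophage-like cells. It had 94.2 CPM in migratory-dendritic-cell-like cells.

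Microglia-like cells of library 2 were compared with those of library 1. The sum of the 29 genes had a log2 ratio of -0.09 (-0.10 to -0.07), and without the 3 most abundant genes it was 0.43 (0.41 to 0.46). Markers moved with this contrast: the 12 microglia markers went from 24758 CPM in library 1 to 10203 CPM in library 2. The 10 dendritic cell markers went from 48.8 CPM (8 detected) to 377 CPM (5 detected, Flt3, Clec10a, Clec9a, Xcr1 and Ifi205 at 0), and the 10 neutrophil markers from 209 to 777 CPM (8 detected in each, Ly6g and Mmp8 at 0). Their part in the ratios below was not tested. A gene is called here when its CPM differs at least 2-fold between sums that together hold at least 50 UMIs. With 1 library on each side, this is a rule of size and not a test. By it, 3 of the 29 genes were higher in library 2, where 2.43% of the 7155 genes with that many UMIs were called higher, and 0 were lower, where 20% of all genes were. The 3 were Ctsb with a log2 ratio of 1.33 (1.26 to 1.40), Npc2 with 1.05 (0.93 to 1.16) and Ctsl with 1.03 (0.93 to 1.14). Of the 29 genes 22 had a ratio above 0, with a median of 0.29 against -0.36 over all 7155 genes. The sums were unequal, with 4731199 UMIs in library 1 and 312942 in library 2. Genes can thus have enough UMIs through library 1 alone, which lowers the median over all genes. The gap between the medians is therefore not read as a difference of the set, and it was not taken again with a stricter filter. Among genes with at least 50 UMIs in the smaller sum as well, 3 of the 25 members left were called higher, against 7.31% of all genes left, and 0 lower, against 3.72%. With cells above 5% mitochondrial UMIs left out and the clusters rebuilt (81 microglia-like cells in library 2), Ctsb alone stayed past 2-fold.

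Ctsb was also higher cell by cell. Its median was 2288 CPM over the 1070 cells of library 1 (quartiles 1596 and 3014) and 5907 CPM over the 65 cells of library 2 (quartiles 4110 and 7910). The interquartile ranges did not overlap. For Ctsl the medians were 1383 and 2576 CPM, with overlapping interquartile ranges (953 to 1883 and 1735 to 3899 CPM). For Npc2 they were 940 and 1829 CPM, with upper and lower quartiles that met at 1332 and 1331 CPM.

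Below the 2-fold mark, Gaa (0.95, interval 0.42 to 1.45), Cd68 (0.77), Ctsz (0.76), Psap (0.69), Lamp1 (0.66), Ctsa (0.63) and Ctsh (0.54) had positive log2 ratios whose intervals left out 0. Ctsd and Ctss had the same log2 ratio, 0.42. On the other side, Cst3 had a log2 ratio of -0.61 (-0.64 to -0.59), Laptm5 -0.49, Laptm4a -0.44 and Lgmn -0.43, also with intervals that left out 0. By role, the 5 exopeptidases all had positive ratios (0.21 to 0.76), the endopeptidases were split, and the lone inhibitor had the lowest ratio of all 29 genes.

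**Figure D4:**
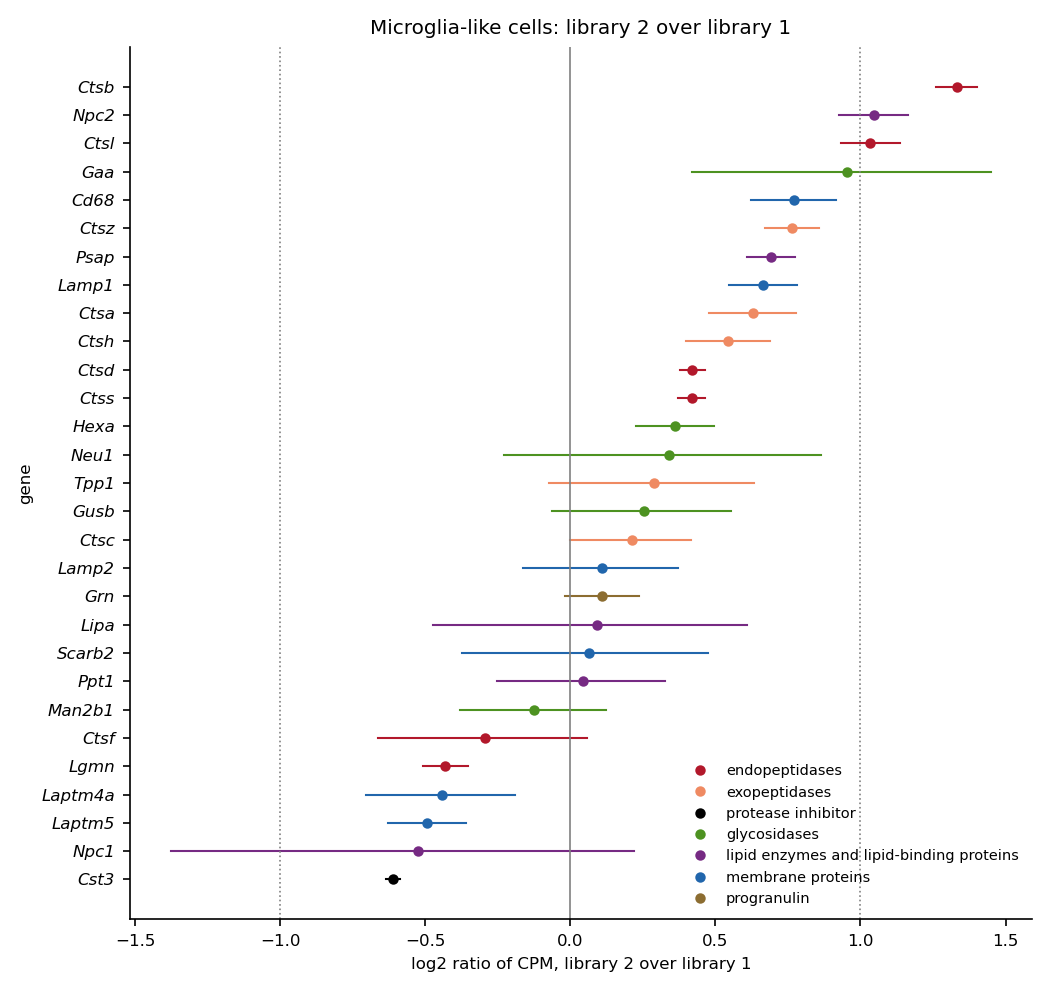
Log2 ratio of CPM in microglia-like cells, library 2 over library 1 (horizontal axis), for the 29 genes in order (vertical axis), coloured by role; bars are 95% counting intervals, the solid line marks 0 and dotted lines a 2-fold difference. Ctsb lies highest at 1.33 and Cst3 lowest at -0.61.

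The 2 libraries held different mixes of microglia-like clusters, so the ratio was also taken within clusters, a step chosen after seeing the data. Cluster 0, led by P2ry13 and P2ry12, held 440 cells of library 1 and 34 of library 2. Cluster 1, led by Adamts1 and Hk2, held 557 and 8. Cluster 5, led by the stress and cytokine genes Il1a, Ccl3, Tnf and Egr1, held 73 and 23. Within cluster 0, Ctsb (1.22) and Ctsl (1.10) were again at least 2-fold higher in library 2, where 2.04% of 3771 genes were and 19.3% were lower, and Npc2 was at 0.96. Within the stress-gene cluster Ctsb (1.37), Npc2 (1.16) and Ctsl (1.04) were, against 3.83% of 1699 genes higher and 12.4% lower. None of the 29 genes was called lower in either cluster, though the shares of all genes called lower again include genes with enough UMIs through library 1 alone.

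The Cst3 difference was uneven between these clusters. Within cluster 0 Cst3 stood at 74310 CPM in library 1 and 61209 CPM in library 2, a log2 ratio of -0.28. Within the stress-gene cluster it stood at 58300 and 31489 CPM, a ratio of -0.89 (-0.93 to -0.85). Apoe, a lipid carrier that is no lysosomal gene, moved alongside: it stood at 2203 CPM in the stress-gene cluster of library 1 and at 30953 CPM in that of library 2. In cluster 0 it stood at 771 and 5910 CPM. The part of depth, dissociation and cluster mix in these differences was not tested, and library and treatment cannot be told apart.

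The stress-gene cluster itself was also compared with the other microglia-like clusters of library 1. The 29 genes summed to 10.0% of its UMIs against 11.8%, a log2 ratio of -0.23 (-0.24 to -0.22). None of the 29 was called in either direction, where 2.41% of 7018 genes were called higher and 5.49% lower, so the count is near the background. Of the 29 genes, 26 had a ratio below 0. Their median was -0.20, against -0.12 over all 7018 genes, so a lean below 0 was shared by genes at large. The cells had a median of 5696 UMIs, against 2831 in cluster 0 and 4225 in cluster 1, and on UMIs per cell the sum was higher in the stress-gene cluster, at a log2 ratio of 0.38.

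The rest of the lysosomal machinery gave a comparison for microglia-like cells, over lists of other genes. The counts below stand beside the same background as above, 2.43% of all genes higher and 20% lower. A gene can have enough UMIs through the larger sum of library 1 alone. With at least 50 UMIs in the smaller sum as well, far fewer of all genes were lower, as given above. The counts of lower genes in these lists are therefore not read as a difference. Of 17 proton pump subunits, which acidify the organelle, 15 had enough UMIs and none was called, with log2 ratios from -0.41 (Atp6ap2) to 0.54 (Atp6v1b2). Of 27 other hydrolases 22 had enough UMIs, 0 were higher and 4 lower, near that background. The highest was Idua, which degrades glycosaminoglycans, at 0.61 (-0.49 to 1.55), and the lowest Manba at -2.42 (-7.74 to 0.10), which rests on 1 UMI in library 2. Of 15 other membrane proteins and transporters 14 were counted, 1 was higher and 2 lower. The higher one was Cd63, a tetraspanin of late endosomes, at 686 and 2473 CPM (log2 ratio 1.85, interval 1.74 to 1.96), and the lowest was the cystine transporter gene Ctns at -1.68 (-3.97 to -0.10) with 3 UMIs in library 2.

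Of 10 other cathepsins and cystatins, 3 had enough UMIs and 2 were higher. Cst7, which codes for cystatin F, an inhibitor that acts inside endosomes and lysosomes, stood at 14.2 CPM in library 1 and 425 CPM in library 2, a log2 ratio of 4.91 (4.47 to 5.35). Of its 133 UMIs in library 2, 121 lay in the stress-gene cluster, where the ratio was 6.07 (4.81 to 7.72) over 5 UMIs in library 1. Cluster 0 held 11 and 28 UMIs in libraries 2 and 1, too few to be called. Cstb, which codes for the cytosolic inhibitor cystatin B, stood at 128 and 323 CPM in libraries 1 and 2 (1.34, 1.02 to 1.64), with 1.13 in cluster 0 and 1.43 in the stress-gene cluster. The lowest was Ctso at -0.55. The cysteine protease inhibitors of microglia-like cells thus had ratios on both sides of 0, with Cst3 at -0.61, Cstb at 1.34 and Cst7 at 4.91, though Cst7 remained far below Cst3 in CPM. Of 10 genes of sorting and transcription, 7 had enough UMIs, 0 were higher and 2 lower, from Mitf at 0.97 (0.02 to 1.81) to Tfe3 at -1.42 (-2.43 to -0.57). Both are transcription factors of the TFEB family, and Tfe3 had 11 UMIs in library 2.

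Within 1 library, microglia-like cells exceeded monocyte-like and dendritic-cell-like cells in most of the set. In library 2, where microglia-like and monocyte-like cells were sequenced together, the sum was 4.43-fold higher in the former (log2 ratio 2.15, 2.11 to 2.18). Of the 27 genes with enough UMIs (Gaa and Npc1 had too few), 19 were at least 2-fold higher and 0 lower, against 16.4% of 1686 genes higher and 20.9% lower. The largest differences were Ctsf at 5.33 (3.42 to 8.41), Ctsd at 4.91 (4.69 to 5.13), Ctsl at 4.28 and Lgmn at 3.58. Ctsf had enough UMIs only through microglia-like cells, and 3.77% of the 53 monocyte-like cells had a UMI of it. The smallest were Ctsc at -0.06, Npc2 at 0.13, Laptm4a at 0.15 and Psap at 0.22. The cathepsins thus held both ends of the range, with Ctsc and Ctsh (0.70) the least different of them.

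Against dendritic-cell-like cells, which both library 1 and library 2 held, 22 of 29 genes were at least 2-fold higher in microglia-like cells of library 1 and 26 of 28 in library 2. The share of all genes called higher was 34.5% in library 1 and 15.3% in library 2. None was lower, against 7.11% and 19.3% of all genes, and every ratio with enough UMIs was above 0. Ctsh and Npc2 stayed under 2-fold in both libraries (0.19 and 0.74 for Ctsh, 0.25 and, just below the mark, 1.00 for Npc2). Ctsd, Ctsl and Ctsf were among the largest in both: Ctsd had 3.18 and 5.70, Ctsl 3.45 and 5.60, Ctsf 3.73 and 5.65. Ctsf had enough UMIs only through microglia-like cells. A UMI of it was found in 16.2% of 37 dendritic-cell-like cells of library 1 and 3.96% of 202 of library 2. In library 1 the same holds for Gaa and Npc1, found in 5.41% and 16.2% of dendritic-cell-like cells. The 22 genes include these, and the 34.5% of all genes can include others counted through microglia-like cells alone. Dendritic-cell-like cells of library 1 included the 9 cells with microglia markers named above.

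Border-associated-macrophage-like cells, 83 of 101 of which carried microglia markers, had a lower share of lysosomal UMIs than microglia-like cells of the same library. Their sum had a log2 ratio of -0.61 (-0.62 to -0.60) over microglia-like cells of library 1. None of the 29 genes was called, where 3.38% of 7606 genes were called higher and 2.56% lower, so the count is near the background. In the 18 cells without microglia markers Ctsd stood at 804 CPM in place of 6174 CPM and Lgmn at 1121 in place of 3582 CPM, while Ctss stood at 5437 in place of 6208 CPM. Over all 101 cells Ctsc, at 1074 CPM against 569 CPM, had the highest ratio, 0.92 (0.82 to 1.02), and Ctsl the lowest, -0.97 (-1.08 to -0.87). The cells were deeper, with a median of 9390 UMIs against 3366, and on UMIs per cell the sum was higher in them, at a log2 ratio of 0.68.

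Monocyte-like cells, present in libraries 2 and 3, differed in a few genes. The sum had a log2 ratio of -0.14 (-0.17 to -0.11), library 3 over library 2, and its sign changed with the processing. Of 26 genes with enough UMIs, 3 were at least 2-fold higher in library 3 and 0 lower, against 13.5% of 3946 genes higher and 4.61% lower, a share near that of all genes. The 3 were Gusb (1.70, interval 1.13 to 2.32), Ctsd (1.59, 1.37 to 1.82) and Lgmn (1.58, 1.33 to 1.84). Ctss (-0.73), Npc2 (-0.86) and Ctsh (-0.78) lay on the other side, under 2-fold.

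These UMIs were concentrated in a part of the cells. In library 2 the 10 monocyte-like cells with the most Ctsd UMIs held 76.8% of them and 17 of 53 cells had none. In library 3 the top 10 held 49.3% and 6 of 102 cells had none. Markers of other states moved alongside. The 12 microglia markers summed to 578 CPM in library 2 (10 detected, Sall1 and Slc2a5 at 0) and 2276 CPM in library 3 (all 12 detected), and 20 proliferation genes to 539 and 1219 CPM. Leaving out the monocyte-like cells in which these 12 markers reached 0.3% of UMIs (2 in library 2 and 25 in library 3) left Ctsd at 336 and 959 CPM, Gusb at 73.8 and 177 CPM and Lgmn at 248 and 487 CPM. Ctsd and Gusb then remained past 2-fold and Lgmn did not.

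Non-classical-monocyte-like cells were compared with monocyte-like cells of the same library. In library 2, 3 of 21 genes were at least 2-fold higher (background 6.47% of 1128 genes) and 3 lower (12.8%). In library 3, 2 of 26 were higher (7.99% of 3656 genes) and 6 lower (22.2%). Apart from the higher count of library 2, these shares are near those of all genes. That count includes Ctsd, which without the cells carrying microglia markers stood at 293 CPM, against 336 CPM in monocyte-like cells. Laptm4a was higher in both libraries, with a log2 ratio of 1.02 in each, and Ctsc lower in both, with -2.82 (-4.15 to -1.75) and -1.74 (-2.22 to -1.29). Cst3 had 0.87 and 1.14.

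Migratory-dendritic-cell-like cells were compared with dendritic-cell-like cells of library 2. Of 24 genes, 2 were higher (background 10.2% of 3859 genes) and 7 lower (22.5%), shares near those of all genes. The higher ones were Lamp1 (1.78, 1.57 to 1.98) and Npc2 (1.26, 1.15 to 1.38). The lower ones were Ppt1 (-2.85), Man2b1 (-2.34), Ctsl (-1.96), Ctsa (-1.51), Grn (-1.47), Laptm5 (-1.30) and Ctsd (-1.17). Lamp1 stood at 904 CPM against 264 CPM, while its relative Lamp2 had a ratio of -0.53 (-1.34 to 0.19).

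Between dendritic-cell-like cells of libraries 2 and 3, none of 26 genes was called (background 4.4% higher and 2.43% lower of 4315 genes). Between libraries 2 and 1, 5 of 24 were lower in library 2 (background 3.57% of 3808 genes) and 0 higher (3.68%), with Ctsd (-2.10) and Lgmn (-1.84) farthest. Without the cells carrying microglia markers, Ctsd stood at 380 CPM in library 1 and 254 CPM in library 2, and Lgmn at 268 and 184 CPM, both under a 2-fold difference.

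Neutrophil-like cells, whose granules hold proteases of another kind, depended on the library. Compared with dendritic-cell-like cells, 7 of 25 genes were at least 2-fold higher in library 2 (background 9.2% of 3673 genes) and 4 lower (35.4%), while in library 3, 1 of 21 was higher (6.68% of 1960 genes) and 15 lower (57.5%). Lamp2 was the gene higher in both, with log2 ratios of 1.72 (1.22 to 2.21) and 1.45 (0.58 to 2.27). It stood at 219 and 165 CPM in neutrophil-like cells, against 66.4 and 60.1 CPM in dendritic-cell-like cells. Neutrophil-like cells of library 2 included the 10 cells with microglia markers, and no such cell was found among those of library 3. Without the 10 cells, Ctsd in neutrophil-like cells of library 2 went from 2107 to 512 CPM and Lgmn from 830 to 106 CPM.

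NK-like cells were low in most of the 29 genes and high in Ctsd. Compared with dendritic-cell-like cells, 15 of 24 genes were at least 2-fold lower in library 2 (background 17.5% of 3852 genes) and 13 of 20 in library 3 (19.1% of 2076 genes), while 1 gene was higher in each (backgrounds 16.7% and 9.73%). That gene was Ctsd both times, with log2 ratios of 2.48 (2.29 to 2.67) and 2.61 (2.31 to 2.91). NK-like cells held 419 Ctsd and 28 Ctss UMIs in library 2, and 182 and 7 in library 3. Dendritic-cell-like cells had the reverse order, with 523 Ctsd and 3736 Ctss UMIs in library 2 and 202 and 1343 in library 3.

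The Ctsd signal of NK-like cells was spread over cells. Thinned to 2000 UMIs, 64 of 67 NK-like cells of library 2 had a Ctsd UMI (95.5%, exact interval 87.5 to 99.1) and 27 of 31 of library 3 (87.1%, 70.2 to 96.4). Dendritic-cell-like cells of the same libraries, thinned alike, had one in 25.7% and 22.9% of cells. For Ctss the order was opposite, with 17.9% and 6.45% of NK-like against 94.1% and 92.9% of dendritic-cell-like cells. Shallower cells, 12 and 2 NK-like cells, were left out, and before thinning the median depths were 3092 and 3002 UMIs in NK-like cells against 8272 and 9585 in dendritic-cell-like cells. Microglia markers summed to 122 and 145 CPM in NK-like cells of libraries 2 and 3, and none of those cells reached 0.3% of UMIs. Of the 2 NK-like clusters, cluster 7 had the T cell gene Cd3g among its leading genes.

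**Figure D5:**
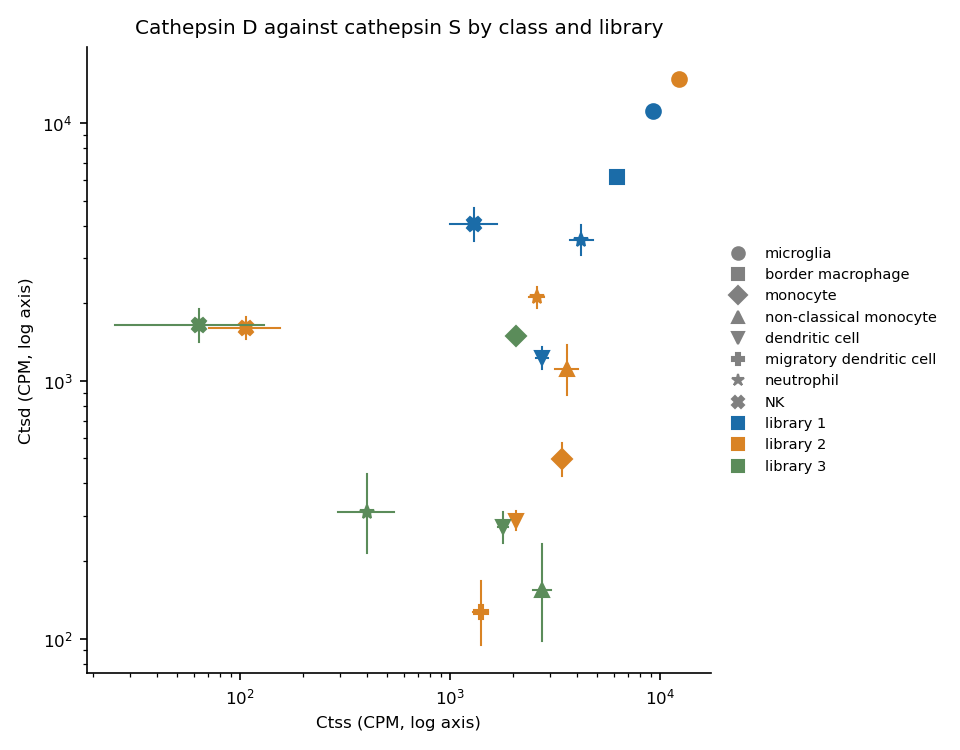
Cathepsin D level (Ctsd, vertical axis) against cathepsin S level (Ctss, horizontal axis), both in CPM on log axes, by cell class (marker shape) and library (colour); bars are 95% counting intervals. Microglia-like cells lie at the upper right, dendritic-cell-like cells of libraries 2 and 3 low in Ctsd, and NK-like cells of those libraries at the left with 1602 and 1645 CPM of Ctsd.

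Across the 17 sums of a named class in a library, single genes followed the sum of the set to different degrees. The Pearson correlation of log2 CPM with the sum was 0.96 for Cst3, 0.95 for Ctss, 0.93 for Lgmn and 0.92 for Ctsz, and lowest for Ctsd (0.48). Each gene is a part of that sum, and Cst3 is most of it over all cells pooled. Among 3214 other genes with at least 50 UMIs in 3 or more of these sums, the closest were Aif1 (0.92), Rgs10 (0.92), Mef2c (0.91), Asah1 (0.91) and Qk (0.91). Asah1 codes for a lysosomal ceramidase and Aif1 for the calcium-binding protein known as Iba1. The points share libraries and differ in depth, so these are descriptions with no test.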

How the data were processed

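Cells were sorted and prepared with the 10x 3′ v2 chemistry, and the authors deposited 1 matrix of raw UMI counts per gene and cell, made with Cell Ranger 2.0.1 on mm10, per the submitters' processing notes. Cells needed at least 500 genes and at most 10% mitochondrial UMIs (5 of 2149 removed). Scrublet, run per library at an expected 5%, marked 7 of 2144 cells (0.326%), too few to count as a working doublet call; those cells were left out. Counts were scaled to 10000 per cell, logged and clustered (scanpy 1.11.5, 2000 variable genes, 30 components, 15 neighbours, Leiden resolution 0.5), with the 29 genes and 79 other lysosomal genes kept out. A class could name a cluster when at least 3 of its markers passed. A marker passed when detected in at least 0.3 of the cells at 2-fold the median level over clusters. Where more than 1 class passed, preference went to the one better represented on the cluster's list of top genes. Cluster 3 passed for microglia with 12 of 12 markers, but 0 of these were on that list. It took the name of border-associated macrophages, with 8 of 9 markers passing and 6 on the list. Further exclusion rules left 3 clusters unnamed, for example where another class led or a second class had markers. Of 139 markers, 5 had no row in the matrix, and the rule for ties was settled after clusters had been seen.

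UMIs were summed by class and library and expressed as CPM, with exact Poisson intervals for levels, exact Clopper-Pearson intervals for shares and conditional binomial intervals for ratios (scipy 1.17.1). PCR duplicates are collapsed by the UMIs, and the intervals cover counting error only. Classes with fewer than 10 cells in a library are not shown. A gene was called at a 2-fold difference with at least 50 UMIs in both sums together. Background shares are over all genes with that many UMIs. No p-value is given, since each group has 1 library and the suffixes are not tied to groups. The ratio intervals and the 2-fold rule were tried on simulated sums with counting error only. The filters, clustering, naming and thinning were not. The genes with full values were the 10 with the most UMIs and those called between libraries 1 and 2 in microglia-like cells; of each other list, the highest and lowest ratio; and the 5 genes most like the sum. The members, lists and comparisons were chosen with earlier results of these data known. Promoter windows are from RefSeq (GRCm38.p6), and gene starts and transcripts from GENCODE on GRCm38.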

Additional observations from a re-analysis of the deposited data

Results flagged for a closer look

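In 3 cases a gene was at least 2-fold higher in a class over its reference class in library 2 and at least 2-fold lower in library 3; the difference between libraries was not tested. Ctsd in non-classical-monocyte-like over monocyte-like cells had a log2 ratio of 1.16 in library 2 (80 UMIs in 23 cells) and -3.28 in library 3 (23 UMIs in 40 cells), a difference of -4.44. Ctsb in neutrophil-like over dendritic-cell-like cells had 1.19 and -1.42, a difference of -2.61. Lgmn in the same comparison had 1.94 and -2.50, a difference of -4.45. Cells with microglia markers differed in number between the libraries: they were 2 of 23 non-classical-monocyte-like and 10 of 52 neutrophil-like cells of library 2, and 0 of 40 and 0 of 21 in library 3. Without them Ctsd stood at 293 CPM in non-classical-monocyte-like and 336 CPM in monocyte-like cells of library 2, and Lgmn at 106 CPM in neutrophil-like and 184 CPM in dendritic-cell-like cells. The level of Ctsb without these cells was not taken.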

How the results depend on the processing

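No paired analysis was possible because each group has 1 library and cells carry no sample. Alternatives within clusters, without cells that carry microglia markers, and with 50 UMIs in the smaller sum were chosen after seeing the data. Log2 ratios of the sum are given in the order microglia-like library 2 over 1, microglia-like over monocyte-like in library 2, monocyte-like library 3 over 2, border-associated-macrophage-like over microglia-like, and stress-gene cluster over the other clusters. They were -0.09, 2.15, -0.14, -0.61 and -0.23. On UMIs per cell they were 0.038, 1.63, 0.93, 0.68 and 0.38, so 4 changed sign; this scale keeps the difference in depth. Without the 3 most abundant genes they were 0.43, 1.48, -0.033, -0.25 and -0.20. Thinned to 2000 UMIs they were -0.042, 2.34, 0.016, -0.78 and -0.26. As means of per-cell CPM they were -0.010, 2.33, -0.039, -0.78 and -0.27. With ribosomal and mitochondrial genes left out of the total they were 0.021, 2.09, -0.10, -0.57 and -0.20. For the first 3, resolution 1.0 gave -0.14, 2.31 and 0.10, at most 5% mitochondrial UMIs -0.31, 2.08 and 0.022, and naming cells one by one -0.025, 2.21 and -0.086. At least 1000 genes per cell gave 2.36 and 0.12 for the second and the third, keeping lysosomal genes in the clustering 2.37 and 0.076, and leaving out monocyte-like cells with microglia markers 2.27 and -0.076. Within cluster 0 the first was 0.054. The sign of the first and the third is therefore not settled, and the cause was not tested.

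Of members called, the count higher in library 2 microglia-like cells went from 3 to 1 at 5% mitochondrial UMIs and to 9 at 1.5-fold, where 1 was lower in place of 0. The count higher in library 3 monocyte-like cells, 3, became 1 at resolution 1.0, with lysosomal genes kept or with cells named one by one, 5 with at least 1000 genes, 20 UMIs or no filter, 6 at 1.5-fold and 13 on UMIs per cell; the count lower, 0, became 1 with at least 1000 genes and 3 at 1.5-fold. In border-associated-macrophage-like cells 0 higher became 1 by per-cell means, thinning or 1.5-fold and 18 on UMIs per cell, and 0 lower became 3 by per-cell means or thinning and 5 at 1.5-fold. In the stress-gene cluster 0 lower became 1 at 1.5-fold. Microglia-like over monocyte-like counts stayed between 15 and 22 higher and 0 lower under all alternatives run. The share in library 1 microglia-like cells, 11.6%, was 11.8% by per-cell means or thinning, 11.0% with cells named one by one, 13.6% without ribosomal and mitochondrial genes and 2.79% without the 3 most abundant genes. The stress-gene comparison could not be made with lysosomal genes kept or cells named one by one, nor the macrophage comparison with the latter. Shallow libraries limit what can be read of genes with few UMIs, such as Gaa, Npc1 and Ctsf outside microglia-like cells.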
